A study of Mus musculus with 6 samples.

Results

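The genes described here are 10 replication licensing genes, taken as a fixed list out of the 31053 gene identifiers counted in each library. They are Mcm2, Mcm3, Mcm4, Mcm5, Mcm6 and Mcm7, which encode the subunits of the replicative helicase, its activation factor Mcm10, and Cdc6, Cdt1 and Orc1, which load the helicase onto DNA. All 10 were matched by Ensembl identifier to a mouse symbol, and all 10 passed the filter on low counts that left 14912 genes for testing. Counts are of reads on the sense strand of each gene. The libraries came from the lungs of wild-type C57BL6 mouse fetuses at E17. The lung cells were dissociated, frozen and thawed, plated on diluted Matrigel, and grown in a medium for blood stem and progenitor cells with mTPO, IL6, SCF, FGF, VEGF and Flt3. All groups shared this strain, stage, tissue and medium. Floating cells (suspension) were collected on days 4, 5 and 6, and so were attached cells (adherent), which were detached with accutase and sorted to enrich live cells carrying VE-cadherin. Each fraction has 3 libraries, 1 for each day, so the days serve as its replicates, and the sort was applied to the adherent fraction alone.

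Before a cell copies its DNA, origins of replication are licensed. The origin recognition complex, of which ORC1 is a subunit, marks an origin, and with CDC6 and CDT1 it loads a ring of MCM2 to MCM7 around the DNA, which stays inactive until S phase. CDC45 and the GINS complex then turn the ring into a working helicase, a step that also needs MCM10, while geminin binds CDT1 so that an origin is not loaded again in the same cycle. The genes are known as targets of E2F transcription factors and are used as markers of cycling cells. In mice, a lowered supply of MCM3 is known to impair the formation of red blood cells in the fetus.

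Because the genes share a class of regulators, their promoters were searched for an E2F site before their levels were compared. RefSeq promoter sequences (GRCm38.p6) were present for 9 of the 10 genes, Mcm4 being the exception, and Mcm7 had 2 annotated starts. The site was written as TTTCCCGC, TTTCGCGC, TTTGCCGC or TTTGGCGC, sought on both strands in the 250 bases before each start. At least 1 match was found in 5 of the 9 genes, namely Mcm5, Mcm6, Mcm7, Cdc6 and Orc1, or in 5 of 10 promoter windows. Over all 32851 windows of the same length, 1.86% held a match. The stretches around these matches are shown 5′ to 3′ on the strand of the gene, with the bases of the matches in capitals. They lie at chr1:128359731-128359830 (Mcm6, minus strand), chr8:75109312-75109411 (Mcm5, plus strand), chr5:138172030-138172059 (Mcm7, minus strand), chr11:98908002-98908031 (Cdc6, plus strand) and chr4:108579416-108579445 (Orc1, plus strand). The Orc1 stretch reaches into the first exon of the gene in GENCODE M21 and the Mcm7 stretch lies within annotated exons.
Mcm6: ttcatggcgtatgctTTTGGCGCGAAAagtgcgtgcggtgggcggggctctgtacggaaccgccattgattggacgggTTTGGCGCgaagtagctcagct
Mcm5: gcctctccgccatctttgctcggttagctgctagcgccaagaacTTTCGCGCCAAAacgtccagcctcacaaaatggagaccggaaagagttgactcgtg
Mcm7: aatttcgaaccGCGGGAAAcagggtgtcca
Cdc6: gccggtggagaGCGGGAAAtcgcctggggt
Orc1: ttcggttagtgGCGCGAAAagttttctcct
Mcm6 had 3 matches, of which a pair overlapped on opposite strands between 110 and 99 bases before the start, and the other lay 47 to 40 bases before it. In Mcm5 both matches overlapped, between 153 and 142 bases before the start. CCAAT, another promoter element, was found on either strand in 7 of the 9 genes, or in 8 of 10 windows, against 33.8% of all windows. GGGCGG, the core of the SP1 site, was found in 6 of the 9, or in 7 of 10 windows, against 32.7%. TTTGAA, an element best known from genes of mitosis, was found in Mcm2 only, or in 1 of 10 windows, against 16.0% of all windows. These are matches of letters and do not show binding, and a gene with no match may carry the site in another spelling.

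The sense counts of a library summed to between 36451255 and 57784974. Levels are in CPM, counts scaled to a common library total, on the scale of edgeR's TMM factors, and 3 counts in a library correspond to between 0.0594 and 0.0756 CPM. The summed level of 11 endothelial markers was 24.9, 19.8 and 16.1 CPM in suspension on days 4, 5 and 6, against 908, 1779 and 690 CPM in adherent libraries, and Cdh5, which encodes VE-cadherin, was among the markers lower in suspension. No marker in the endothelial list was at 0 in all libraries of a fraction, but some had very few reads in suspension. On days 4, 5 and 6, Emcn had 0, 0 and 1 counts there, Cldn5 4, 2 and 0, Tek 2, 2 and 0, and Tie1 1, 6 and 0. The summed level of 10 macrophage markers was 35650, 31650 and 31210 CPM in suspension, and in adherent libraries it was 6246, 9057 and 12910 CPM. Markers of granulocyte precursors summed to 2213, 2922 and 1741 CPM in suspension, against 6.76, 103 and 98.5 CPM in adherent libraries. Fibroblast markers were lower in suspension, at 64.6, 59.7 and 17.4 CPM against 1471, 2293 and 2263 CPM. Libraries thus differed in their make-up of cell types between the fractions and between the days. The part of this make-up in the levels of the licensing genes was not tested. The counts are sums over whole libraries, so fewer cycling cells and less RNA of a gene per cell cannot be told apart. Nothing in the labels tells if each day had a culture of its own, and p-values measure the spread between these libraries only.

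The first question was whether floating and attached cells differed in the expression of the licensing genes. Levels were higher in suspension for 8 of the 10 genes by the quasi-likelihood test of edgeR, with p-values adjusted by Benjamini-Hochberg over all 14912 genes, and for 0 were they lower. Mcm2, Mcm5, Mcm10 and Cdt1 were about 2-fold higher, and Mcm3, Mcm6, Mcm7 and Cdc6 were higher by 1.63-fold to 1.81-fold. Mcm4 and Orc1 did not pass. Leaving out suspension day 5 gave 4 genes, namely Mcm2, Mcm3, Mcm5 and Cdt1, against 18.9% of all genes called higher. Leaving out any other library gave between 7 and 10, against 20.3% to 27.3% of all genes. Among all genes tested, 27.1% were called higher in suspension, 29.7% lower and 56.8% in either direction. The median log2 ratio of suspension over adherent was 0.80 for the 10 genes and -0.002 for all genes. In 9 of the 10 genes, every suspension library was above every adherent library, an order found in 33.4% of all genes. No member passed a test against a 2-fold difference, in which 8.77% of all genes were called higher.

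**Figure D1:**
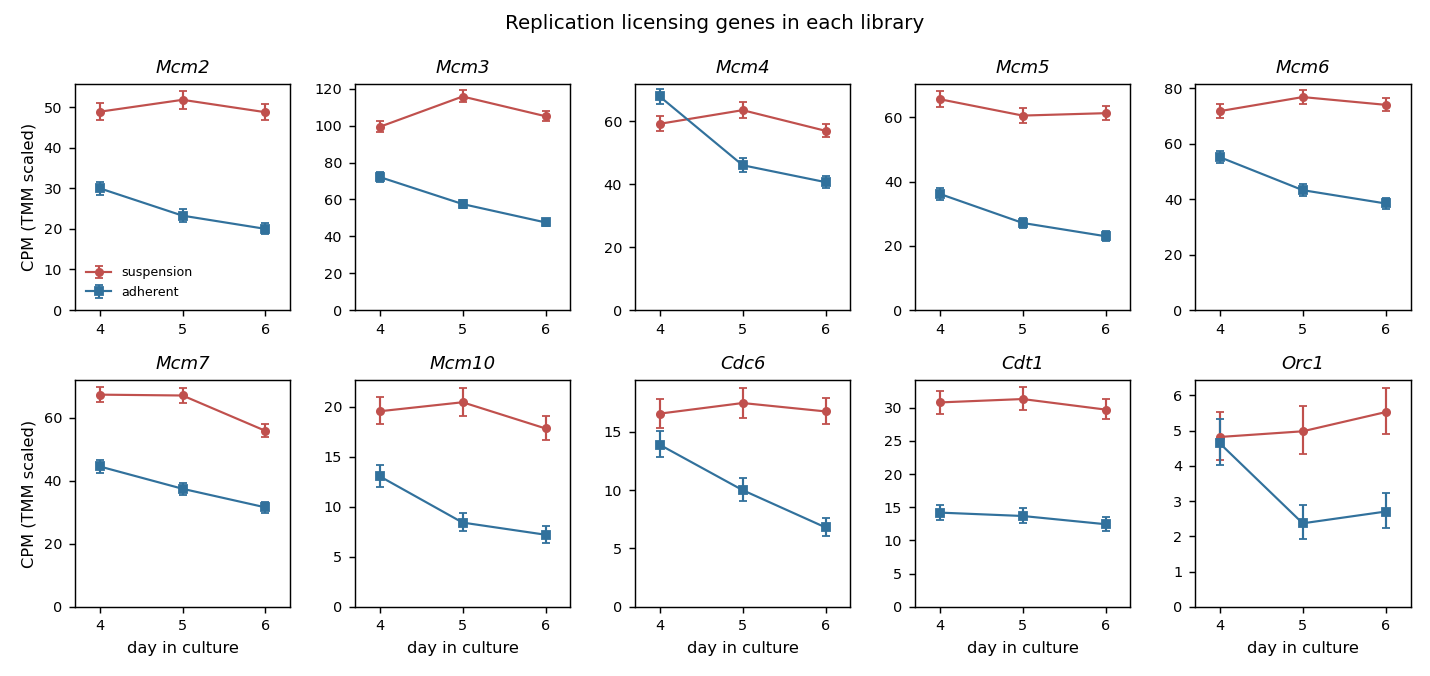
Level of each of the 10 genes (vertical axis, CPM on the TMM scale, starting at 0) by day in culture (horizontal axis) in suspension (red circles) and adherent (blue squares) libraries, 1 library per point, with bars for the 95% counting interval. Suspension libraries lie above adherent libraries on each day except for Mcm4 on day 4, where suspension had 59.1 CPM against 67.8 CPM in adherent cells.

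Of the 6 helicase subunit genes, 5 were higher in suspension. Mcm2 (ENSMUSG00000002870, mm10 chromosome 6, 88883474 to 88898780) had 48.9, 51.8 and 48.8 CPM in suspension on days 4, 5 and 6, against 30.02, 23.3 and 20.01 CPM in adherent cells. The suspension libraries were close to each other and all lay far above the adherent libraries, among which day 4 was the highest. The log2 ratio was 1.03 ± 0.16 (SE; edgeR adjusted p = 0.00254). Mcm5 (ENSMUSG00000005410, chromosome 8, 75109569 to 75128439) had 65.7, 60.6 and 61.3 CPM in suspension and 36.2, 27.1 and 22.99 CPM in adherent cells, a log2 ratio of 1.12 ± 0.18. The fractions did not overlap, and the adherent level was again highest on day 4.

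Mcm3 (ENSMUSG00000041859, chromosome 1, 20802968 to 20820312) had 99.4, 116 and 105 CPM in suspension, against 72.2, 57.5 and 47.6 CPM in adherent cells (log2 ratio 0.85 ± 0.17). Mcm6 (ENSMUSG00000026355, chromosome 1, 128331590 to 128359664) had 71.8, 76.8 and 74.0 CPM in suspension and 55.1, 43.2 and 38.4 CPM in adherent cells (0.70 ± 0.15). Mcm7 (ENSMUSG00000029730, chromosome 5, 138164583 to 138172422) had 67.4, 67.1 and 55.9 CPM in suspension and 44.6, 37.5 and 31.6 CPM in adherent cells (0.74 ± 0.16). In each of these genes the lowest suspension library was still above the highest adherent library. Their edgeR adjusted p-values lay between 0.00572 and 0.00751, but without the suspension library of day 5 those of Mcm6 and Mcm7 were 0.0545 and 0.0538.

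Mcm4 (ENSMUSG00000022673, chromosome 16, 15623897 to 15637400) was the subunit gene that did not pass. It had 59.1, 63.5 and 56.9 CPM in suspension, against 67.8, 46.0 and 40.6 CPM in adherent cells. Its adherent library of day 4 was above all 3 suspension libraries, so the fractions overlapped, and the log2 ratio was 0.22 ± 0.20 (edgeR adjusted p = 0.383). Without that library the log2 ratio was 0.47 and the adjusted p 0.0129. The start of Mcm4 lies 466 bases from that of Prkdc, a DNA repair kinase gene on the opposite strand, and no exon of another gene overlaps it.

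The subunits enter the ring in equal numbers, so the make-up of the Mcm2 to Mcm7 reads was compared between libraries, as a share that does not depend on how libraries were scaled. Reads of a gene also depend on how its 3′ end is captured, so a share is read across libraries and not between genes. Mcm4 took 14.3%, 14.6% and 14.2% of these reads in suspension on days 4, 5 and 6, against 22.2%, 19.6% and 20.2% in adherent cells, and the fractions did not overlap. Mcm5 took 15.0% ± 1.03 of the reads in suspension (SD, n = 3), and 11.6% ± 0.202 in adherent cells. Mcm2 took 12.0% ± 0.146 in suspension, and 9.89% ± 0.0711 in adherent cells. Neither of these overlapped between the fractions, whereas the shares of Mcm3, Mcm6 and Mcm7 did. The shares of a library sum to its whole, so a lower share of Mcm4 goes with higher shares elsewhere. These differences are therefore not separate observations. How often shares overlap in other gene sets was not computed. For levels in CPM, 33.4% of all genes had every suspension library above every adherent library, and 34.4% had every one below. With 3 libraries against 3, an exact permutation test cannot give a p below 0.1, so no p is given for the shares.

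**Figure D2:**
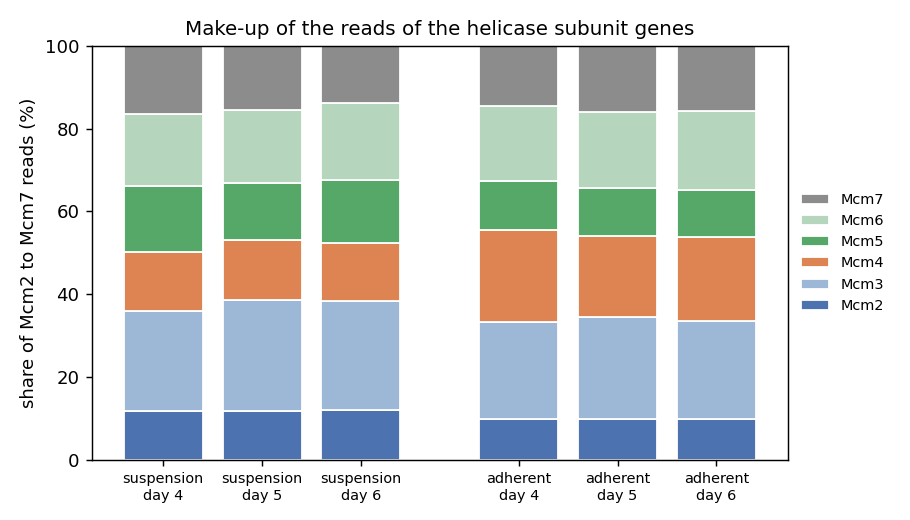
Share of the summed Mcm2 to Mcm7 sense reads taken by each gene (stacked bars, percent) in the 3 suspension libraries and the 3 adherent libraries, by day. The Mcm4 segment spans 14.2% to 14.6% in suspension and 19.6% to 22.2% in adherent libraries.

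Among the loading and activation factors, Cdt1 had the largest difference. Cdt1 (ENSMUSG00000006585, chromosome 8, 122568015 to 122573554), the loading factor that geminin holds back, had 30.8, 31.3 and 29.7 CPM in suspension, against 14.2, 13.7 and 12.4 CPM in adherent cells. Levels were almost even over the days in both fractions, and the ratio was 2.28-fold (log2 1.19 ± 0.10, edgeR adjusted p = 0.000487). It passed in every alternative other than the test against a 2-fold difference (adjusted p = 0.0533). Gmnn, which encodes geminin, was higher in suspension by a like ratio, with 138, 143 and 136 CPM in suspension and 73.1, 59.2 and 59.0 CPM in adherent cells (log2 1.12 ± 0.12). The level of Cdt1 divided by that of Gmnn was 0.223, 0.218 and 0.219 in suspension and 0.194, 0.231 and 0.211 in adherent cells, and these ranges overlapped.

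Mcm10 (ENSMUSG00000026669, chromosome 2, 4989714 to 5012791), needed to activate the loaded helicase, had 19.5, 20.4 and 17.8 CPM in suspension and 13.04, 8.41 and 7.198 CPM in adherent cells. The fractions did not overlap, and the log2 ratio was 1.01 ± 0.23 (edgeR adjusted p = 0.0106, but 0.0595 without the suspension library of day 5). Cdc6 (ENSMUSG00000017499, chromosome 11, 98907801 to 98923940), an ATPase that loads the helicase with Cdt1, had 16.6, 17.5 and 16.8 CPM in suspension and 13.9, 10.00 and 6.80 CPM in adherent cells. Its fractions did not overlap either, and the adherent level was lower on each following day. The log2 ratio was 0.73 ± 0.25 with an edgeR adjusted p of 0.0471, which lay between 0.123 and 0.164 without any of the 3 suspension libraries or the adherent library of day 5.

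Orc1 (ENSMUSG00000028587, chromosome 4, 108579423 to 108614833), the subunit of the origin recognition complex whose abundance is known to follow the cell cycle, had the fewest reads, between 94 and 279 in a library. It had 4.82, 4.98 and 5.53 CPM in suspension and 4.64, 2.37 and 2.70 CPM in adherent cells. On day 4 the ratio of suspension over adherent was 1.04, and the 95% counting intervals overlapped. They were 4.17 to 5.54 CPM in suspension and 4.02 to 5.33 CPM in adherent cells. On days 5 and 6 the intervals of the fractions lay apart. The log2 ratio was 0.66 ± 0.29 (edgeR adjusted p = 0.0969), and leaving out adherent day 4 gave 1.01 with an adjusted p of 0.00883.

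**Figure D3:**
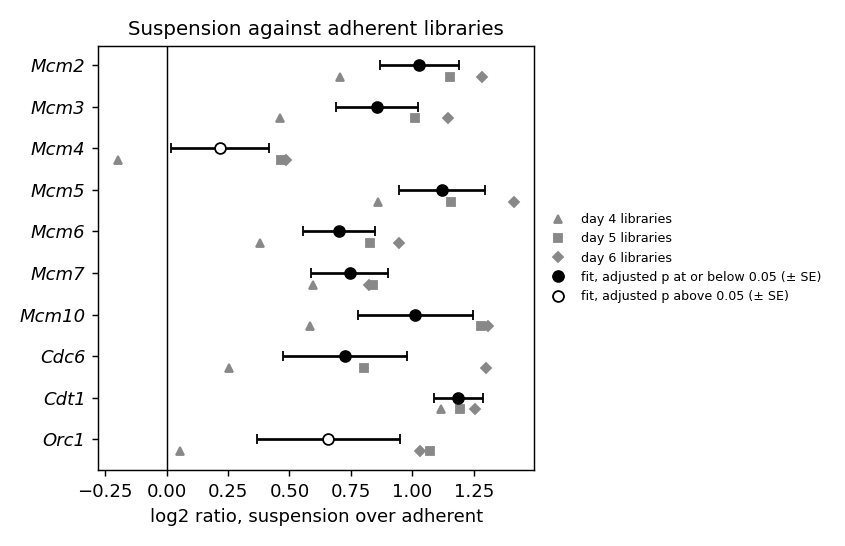
Log2 ratio of suspension over adherent (horizontal axis) for each gene, as fitted over all 6 libraries (black circles with SE, filled where the adjusted p was at or below 0.05) and for the libraries of each day (grey symbols, no error). Mcm4 and Orc1 have open circles at 0.22 and 0.66, and the day 4 symbol lies left of the others for all 10 genes.

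The second question was whether the levels changed from day 4 to day 6. In adherent cells, the slope per day was below 0 for all 10 genes, and Mcm2, Mcm4, Mcm5 and Cdc6 fell by edgeR's quasi-likelihood test, against 3.52% of all genes called lower over the days. In suspension 0 of the 10 passed in either direction by edgeR, which called 0.496% of all genes. DESeq2 called 0 of the 10 as well, with 1.24% of all genes higher and 4.28% lower. The median slope of the 10 genes was -0.31 log2 per day in adherent cells and 0.05 for all genes. Cdc6 fell most, by 0.51 ± 0.08 log2 per day (edgeR adjusted p = 0.0245), to a day 6 level that was 49.0% of the day 4 level. Mcm4 fell by 0.37 ± 0.08 per day (edgeR adjusted p = 0.0434), Mcm5 by 0.33 ± 0.06 (0.0360) and Mcm2 by 0.29 ± 0.06 (0.0472). Mcm3, Mcm6, Mcm7 and Mcm10 had adherent slopes between -0.43 and -0.25 with edgeR adjusted p between 0.0504 and 0.0698, and did not pass. DESeq2 called 8 of the 10 lower, these 4 included, against 6.07% of all genes.

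These calls rest on few libraries. The count of genes that fell was 0 without the adherent library of day 4 or of day 6. It was also 0 without any of the suspension libraries, which enter the shared estimate of the spread. In these fits between 0.456% and 0.866% of all genes were called lower. Leaving out adherent day 5 instead gave 7, against 6.54% of all genes. In 9 of the 10 genes the adherent level was lower on each following day, an order found in 21.9% of all genes, and in all 10 the adherent library of day 4 was above those of days 5 and 6, as in 31.1% of all genes. Orc1 was the exception to the steady order, with 2.37 CPM on day 5 and 2.70 CPM on day 6. Without the adherent library of day 4 its adherent slope was 0.19. Markers of several cell types moved over the same days in adherent libraries, some up and some down. Of 10 macrophage markers 6 rose and 0 fell, with summed levels of 6246, 9057 and 12910 CPM on days 4, 5 and 6. Of 8 markers of maturing neutrophils 3 rose, with sums of 314, 899.5 and 1180 CPM, and of 6 markers of their precursors 0 passed, with sums of 6.76, 103 and 98.5 CPM. Of 6 mast cell markers 1 rose, Tpsb2, and their sums were 0.300, 79.0 and 253 CPM. Among 7 fibroblast markers Dcn and Tcf21 rose, with sums of 1471, 2293 and 2263 CPM. In the same direction as the licensing genes, 3 of 5 epithelial markers fell, namely Krt8, Krt18 and Cdh1, to day 6 levels that were 17.9%, 12.4% and 21.9% of those on day 4. The sum of the 5 was 1213, 256 and 842 CPM, lowest on day 5. Within it Sftpc had 766, 120 and 773 CPM, and the other 4 were lower on each following day. Of 11 endothelial, 7 red cell and 5 megakaryocyte markers tested, 0 passed in either direction. The endothelial sum was 908, 1779 and 690 CPM, highest on day 5, a shape that a slope over the days does not capture. Among all genes 7.75% rose over the days in adherent cells. The part of these markers in the fall of the licensing genes was not tested.

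Cdt1 had the adherent slope nearest to 0, at -0.09 ± 0.07 log2 per day (edgeR adjusted p = 0.406), and its day 6 level was 87.7% of that on day 4. For the other 9 genes the adherent day 6 level was between 49.0% and 70.8% of that on day 4. In suspension the day 6 level of the 10 genes was between 82.9% and 115% of that on day 4, the lowest being that of Mcm7, whose suspension slope was -0.14 ± 0.07 (edgeR adjusted p = 0.388). During the same days the summed level of 8 markers of maturing neutrophils in suspension was 26680, 34360 and 81710 CPM, with 1 marker, Ngp, passing. That of the 5 epithelial markers was 219, 31.98 and 12.6 CPM, and Krt8 and Krt18 fell. Of the other marker lists 0 genes passed in suspension, where edgeR called 0.0939% of all genes higher and 0.402% lower over the days. The part of the markers in the levels of the licensing genes was not tested.

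**Figure D4:**
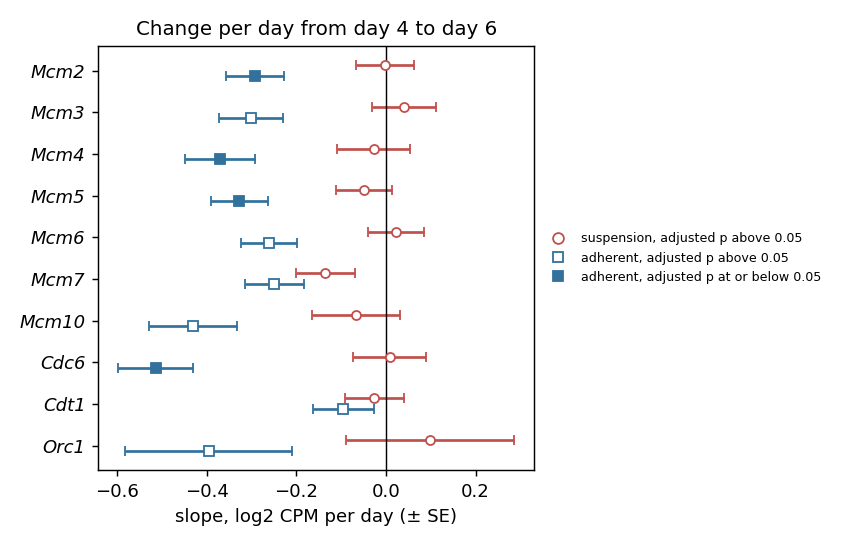
Slope per day in log2 CPM (horizontal axis, with SE) of each gene in suspension (red circles) and adherent (blue squares) libraries, filled where the adjusted p was at or below 0.05. The adherent slopes of Mcm2, Mcm4, Mcm5 and Cdc6 are filled, and the adherent slope of Cdt1, at -0.09, lies nearest to 0.

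Whether the change over days differed between the fractions was tested as the suspension slope minus the adherent slope. The difference was above 0 for all 10 genes, with a median of 0.32 against -0.07 for all genes, but 0 passed edgeR's adjusted threshold, at which 0.0536% of all genes were called higher. DESeq2 called 0 as well, with 1.32% of all genes higher. Cdc6 had the largest difference, 0.52 ± 0.12 log2 per day (edgeR adjusted p = 0.108), and Cdt1 the smallest, 0.07 ± 0.10 (adjusted p = 0.739). The ratio of suspension over adherent was larger on each following day for 8 of the 10 genes, as for 17.3% of all genes. For Cdc6 this ratio was 1.19, 1.75 and 2.46 on days 4, 5 and 6, for Mcm3 it was 1.38, 2.02 and 2.21, and for Cdt1 it was 2.17, 2.29 and 2.39. A slope common to both fractions was called for 0 of the 10 by edgeR, which called 0.0134% of all genes. DESeq2 called 1 of the 10 lower, Mcm7, against 4.88% of all genes.

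Other genes of DNA replication were set beside the licensing genes. Of 56 genes for the remaining origin recognition subunits and MCM relatives, origin firing, the replication fork and deoxynucleotide supply, 20 (35.7%) were higher and 0 lower in suspension by the same edgeR test, against 27.1% and 29.7% of all genes, with a median log2 ratio of 0.35. Leaving out the adherent library of day 4 gave 39, against 27.3% of all genes. Leaving out a suspension library or the adherent library of day 5 gave between 9 and 12, against 18.9% to 21.9%. The count was 13 without mitochondrial and globin genes, against 25.5% of all genes. It was 9 when a gene needed 10 CPM in 3 libraries to be tested, against 27.2%. In adherent cells 18 (32.1%) fell and 0 rose over the days, against 3.52% and 7.75% of all genes. But without any library other than the adherent library of day 5 the number that fell was between 0 and 3. In those fits 0.456% to 0.866% of all genes fell. Of 9 other origin recognition genes and MCM relatives, 2 (22.2%) were higher in suspension, a share near that of all genes, with a median log2 ratio of 0.14. These were Mcmbp, an MCM-binding protein, at 0.54 ± 0.11, and Mcm9, an MCM relative with a role in DNA repair, at 0.54 ± 0.15. Orc2 and Orc6, further subunits of the recognition complex, did not pass, at 0.34 ± 0.14 and -0.16 ± 0.17 log2. Orc6 had 69.5, 64.8 and 65.7 CPM in suspension and 90.7, 75.1 and 57.9 CPM in adherent cells, so that the fractions overlapped.

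Of 17 genes of origin firing, 6 (35.3%) were higher in suspension, against 27.1% of all genes. Among them, Cdc45, a partner of the working helicase, had 30.3, 27.7 and 27.1 CPM in suspension and 16.5, 13.3 and 11.02 CPM in adherent cells (log2 ratio 1.06 ± 0.16). Wdhd1, which ties the helicase to DNA polymerase alpha, was higher at 1.10 ± 0.11. Dbf4, the activating subunit of the kinase that starts an origin, did not differ by the test between the fractions (adjusted p = 0.134), and in adherent cells it fell over the days by 0.47 per day. Of 23 fork genes 9 (39.1%) were higher, among them the sliding clamp Pcna (0.88 ± 0.12) and the polymerase delta subunit Pold3 (0.92 ± 0.11). Of 7 genes of deoxynucleotide supply 3 (42.9%) were higher, with Dck, a salvage kinase, at 1.56 ± 0.21 and Rrm2, the small subunit of ribonucleotide reductase, at 1.05 ± 0.34.

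Regulators of the licensing genes went both ways. Of 9 genes that restrain or destroy licensing factors, 5 (55.6%) were higher and 3 (33.3%) lower in suspension, against 27.1% and 29.7% of all genes. The higher ones were Gmnn, given above, Dtl, Fbxo5, Fzr1 and Ccnf. The lower ones were Ddb1, Cul4a and Cul4b, parts of the ubiquitin ligase that destroys CDT1 in S phase. Dtl, a further part of that ligase, was higher at a log2 ratio of 0.37 ± 0.12, so its parts went both ways. Ddb1 had 114, 122 and 105 CPM in suspension and 199, 196 and 167 CPM in adherent cells (log2 ratio -0.72 ± 0.11). Of 12 genes of the E2F and retinoblastoma family, 6 (50.0%) were higher and 2 (16.7%) lower. E2f2, an activating E2F, had 23.8, 24.8 and 31.7 CPM in suspension and 3.37, 2.87 and 3.24 CPM in adherent cells, a log2 ratio of 3.08 ± 0.16. Rb1, which restrains the activating E2Fs, was higher as well, at 1.79 ± 0.14. E2f8, a repressing E2F, fell in adherent cells by 0.77 per day.

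For 14 genes of mitosis, 7 (50.0%) were higher in suspension, against 27.1% of all genes, with a median log2 ratio of 0.73, and 13 (92.9%) fell over the days in adherent cells, against 3.52%. Mki67, a protein of dividing cells, is the one that did not pass there. The summed level of the 10 licensing genes was 484, 509.9 and 472 CPM in suspension and 352, 269 and 230.3 CPM in adherent cells. Divided by the sum over the mitotic genes, it was 0.271, 0.311 and 0.291 in suspension and 0.264, 0.285 and 0.333 in adherent cells, and these ranges overlapped. The sum of Mcm2 to Mcm7 over Mki67 alone was 1.58, 1.61 and 1.51 in suspension. In adherent cells it was higher, at 2.61, 2.67 and 2.39, with no overlap. Over Pcna that sum was 5.26, 5.83 and 5.19 in suspension and 6.31, 6.33 and 5.06 in adherent cells, which overlapped. The ratio thus depended on the gene it was set against.

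**Figure D5:**
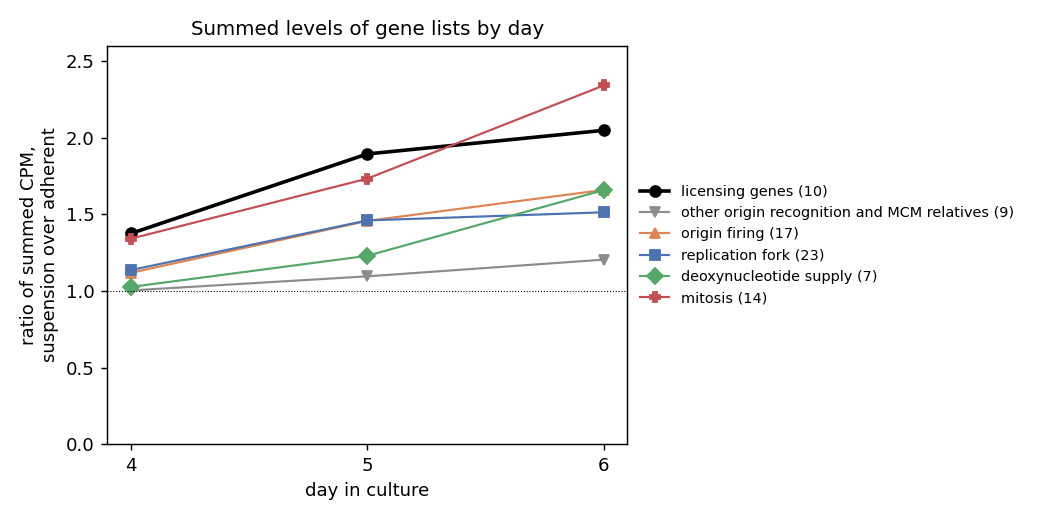
Ratio of the summed CPM of a gene list in suspension over adherent libraries (vertical axis) by day (horizontal axis), for the 10 licensing genes (black) and 5 other lists, with the number of genes in brackets and a dotted line at 1. The licensing genes stood at 1.38, 1.90 and 2.05 on days 4, 5 and 6, and the other origin recognition genes and MCM relatives at 1.004, 1.10 and 1.21.

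The members were also compared with each other and with all other genes by the shape of their levels over the 6 libraries, which share their scaling and, in each fraction, their cells. Pearson's correlation of log2(CPM + 1) with the mean of the other members was between 0.911 and 0.998 for 9 of the genes and 0.780 for Mcm4. Among 5801 unlisted genes with a mean of at least 20 CPM, the 8 with the profile most like the mean of the members had correlations of 0.9938 or more over 6 libraries. They were Rangap1, Gtf2f1, Aspm, Dnmt1, Asf1b, Usp1, Nubp1 and Arhgap11a. Rangap1, which activates the GTPase of the Ran protein, had 82.4, 85.2 and 81.2 CPM in suspension and 61.1, 45.0 and 39.1 CPM in adherent cells. Dnmt1, which copies DNA methylation onto new strands, had 115, 132 and 122 CPM in suspension and 89.1, 57.8 and 51.1 CPM in adherent cells. Such correlations over 6 libraries in 2 fractions describe a likeness in level.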

How the data were processed

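The authors deposited raw read counts by gene of whole 10x 3' v3 libraries, with columns for either strand, the sense strand and the antisense strand. Per the submitters' processing notes, bcl2fastq, Cell Ranger and STARsolo were used with mm10. Neither their versions nor the annotation is given in the sources used here. Reads were not collapsed by molecular identifier, so copies of a molecule count as separate reads and the counting intervals may be too narrow. Cells were not separated, and the intervals cover the counting error of reads only. GENCODE M21 (GRCm38, as mm10) gave positions and symbols and held 31011 of 31053 identifiers. Reads in the 4 summary lines were left out of library sizes. Reads in no gene (sense) were between 16.7% and 24.2% of a library. Multimapping reads were between 13.9% and 22.6%.

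Genes were filtered with filterByExpr and scaled by TMM in edgeR 4.0.16 (R 4.3.3). A quasi-likelihood test compared suspension with adherent libraries. Slopes per day were fitted in common and for each fraction. Tests covered the whole table, with Benjamini-Hochberg adjustment and a threshold of 0.05. The SE is approximate, taken as |log2| over √F. DESeq2 1.42.0 was an alternative. On simulated counts with 200 changed genes, the fraction contrast recovered 64.2% of log2 ratios of 1, with 7 false calls among 181. The adherent slope recovered 40.3% of slopes of 0.5, with 11 false calls among 156. The simulated spread came from the fit with a slope for each fraction, without the day trends that the fraction contrast leaves in its spread. In the real fraction contrast 56.8% of all genes were called, far more than the 200 changed here. The simulated rates therefore do not give the recovery or false calls of that contrast in these data. The labels give 1 suspension and 1 adherent library the same day in culture, and their deviations from the fraction means correlated across genes at 0.339, 0.146 and 0.288 for days 4, 5 and 6. The day was therefore also fitted as a block.

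The members and the gene lists were chosen with earlier results of these data known. All 10 members were named. From each other list, those with the 2 lowest p-values in the fraction contrast or in the slope difference could be named. Others (Cul4a, Cul4b, Dtl, Fzr1, Ccnf, Prkdc and markers of other cell types) were named after their values were seen. Promoter motifs were sought in RefSeq sequences of GRCm38.p6.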

Additional observations from a re-analysis of the deposited data

Results flagged for a closer look

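All 10 members had reads on the antisense strand, a column that the comparisons do not use, above the 3 counts that a count of 0 allows. Over the 6 libraries these were 183 reads for Mcm2, 201 for Mcm3, 846 for Mcm4, 198 for Mcm5, 196 for Mcm6, 323 for Mcm7, 159 for Mcm10, 79 for Cdc6, 138 for Cdt1 and 229 for Orc1. For Orc1 they made up 15.0% of the reads on both strands in suspension and 20.8% in adherent cells. The other members had between 1.01% and 6.72% in suspension and between 0.733% and 4.00% in adherent cells. Over all genes, antisense reads were between 6.24% and 7.30% of those on both strands in a library. Antisense reads as such are therefore not particular to these genes, and of the members Orc1 alone lay above that range. An annotated transcript on the opposite strand, Gm12743, overlaps 10.8% of the exon bases of Orc1. Mcm7 overlaps Ap4m1 over 7.3% and Cops6 over 1.4% of its exon bases, both on the opposite strand. With reads of either strand counted, 8 members were higher in suspension, as with sense reads, against 26.5% of all genes.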

How the results depend on the processing

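The log2 ratios of suspension over adherent were above 0 for all 10 members under the alternatives run, except that Orc1 was not tested at a minimum of 10 CPM in 3 libraries. With the day as replicate block, 8 members and 20 other replication genes were higher, against 27.3% of all genes. No call of a member in that contrast changed. Scaling by DESeq2's size factors, thinned counts, a minimum of 10 CPM in 3 libraries, and leaving out mitochondrial and globin genes each gave 7 members, with Cdc6 at an adjusted p of 0.0558, 0.0558, 0.108 and 0.0746. In these 4 fits between 25.5% and 27.2% of all genes were called higher. A test against a 2-fold difference gave 0 members and 1 other replication gene, against 8.77% of all genes. Leaving out 1 library gave between 4 (without suspension day 5) and 10 (without adherent day 4) members, and between 9 and 39 other replication genes. The share of all genes called higher was 18.9% without suspension day 5 and 27.3% without adherent day 4. The minimum of 10 CPM gave 9 other replication genes higher and 1 lower, against 27.2% and 31.6% of all genes. Leaving out mitochondrial and globin genes gave 13 higher, against 25.5%. For the adherent slope, edgeR called 4 members lower, against 3.52% of all genes. DESeq2 gave 8 (6.07% of all genes), no filter 7 (4.12%) and the minimum of 10 CPM 8 (7.36%). Leaving out mitochondrial and globin genes gave 7 (4.46%). Leaving out 1 library gave between 0 and 7 members and between 0 and 25 other replication genes, against 0.456% to 6.54% of all genes. A fraction with 2 days left takes its spread from the other libraries. DESeq2 called 1 member and 11 other replication genes lower in the common slope, against 4.88% of all genes. It called 5 other replication genes higher in the slope difference, against 1.32%. Without the filter the slope difference gave 3, with 0.722% of all genes higher, and leaving out 1 library gave between 0 and 3, with 0% to 0.969%. The cause of these changes was not tested.

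Slopes that changed sign had not passed in any fit. Leaving out 1 library gave Orc1 a common slope between -0.343 and 0.116, an adherent slope between -0.968 and 0.191 and a slope difference between -0.092 and 1.068, and Mcm7 a slope difference between -0.017 and 0.284. In suspension it gave slopes between -0.129 and 0.086 for Mcm2, -0.181 and 0.223 for Mcm3, -0.199 and 0.104 for Mcm4, -0.095 and 0.1 for Mcm6, -0.24 and 0.067 for Mcm10, -0.102 and 0.078 for Cdc6, and -0.117 and 0.025 for Cdt1. The Mcm2 suspension slope was 0.012 with thinned counts. That of Cdc6 was -0.014 at the higher CPM minimum, -0.011 with thinned counts and -0.011 without mitochondrial and globin genes. With 1 library per fraction and day, a day and its library cannot be told apart.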
